A study of Mus musculus with 18 samples.

Results

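Ciart, Bhlhe40 and Bhlhe41 encode transcriptional repressors of the circadian clock, and their levels were described in 4 groups of dermal cells over the day. They are 3 of the 32285 genes in the count matrices and were taken by name, each from 1 row. The 3 genes were chosen because their levels over the day and between cell types were known to differ, so these levels are given here as values with their spread and without a test. The samples were 18 single-cell RNA-seq libraries of dorsal dermis, each from 1 male wild-type C57BL/6J mouse, with 3 mice at each of 6 zeitgeber times (ZT, hours after lights on): ZT2, ZT6, ZT10, ZT14, ZT18 and ZT22. All mice were kept under 12 h light and 12 h dark, and the study's methods describe young adults with hair follicles in telogen, the resting phase. Hair was removed, the skin was digested with collagenase, and live cells were sorted with SYTOX blue before loading, so every level is that of a cell after digestion and sorting.

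The clock is a loop in which the activators BMAL1 (encoded by Arntl) and CLOCK bind E-boxes, short DNA elements in promoters, and switch on their own repressors. The PER and CRY proteins are the best known of these. CIART, also called CHRONO, binds BMAL1 and represses the complex, and BHLHE40 and BHLHE41, also called DEC1 and DEC2, are basic helix-loop-helix proteins that bind E-boxes themselves. Bhlhe40 is in addition induced by hypoxia, serum and cell activation, and it has known roles in T cells and tissue macrophages.

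Ciart (ENSMUSG00000038550) lies at chr3:95878503-95882251 on the minus strand of GRCm38, Bhlhe40 (ENSMUSG00000030103) at chr6:108660629-108666925 on the plus strand, and Bhlhe41 (ENSMUSG00000030256) at chr6:145858243-145865558 on the minus strand. The promoters of Ciart and Bhlhe41 are shown because the E-box is the element that places a gene under the clock's activators. Each sequence runs from 250 bases before to 50 bases after the start of the RefSeq transcript in GRCm38.p6, 5′ to 3′ on the minus strand, at chr3:95882179-95882478 for Ciart and at chr6:145865371-145865670 for Bhlhe41, and the capitals mark the E-box CACGTG.
Ciart: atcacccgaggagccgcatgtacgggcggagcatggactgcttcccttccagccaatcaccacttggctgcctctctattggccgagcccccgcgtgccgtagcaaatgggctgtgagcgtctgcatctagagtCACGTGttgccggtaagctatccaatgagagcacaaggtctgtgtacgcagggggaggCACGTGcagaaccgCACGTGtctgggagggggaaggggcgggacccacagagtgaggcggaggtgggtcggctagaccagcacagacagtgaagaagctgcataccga
Bhlhe41: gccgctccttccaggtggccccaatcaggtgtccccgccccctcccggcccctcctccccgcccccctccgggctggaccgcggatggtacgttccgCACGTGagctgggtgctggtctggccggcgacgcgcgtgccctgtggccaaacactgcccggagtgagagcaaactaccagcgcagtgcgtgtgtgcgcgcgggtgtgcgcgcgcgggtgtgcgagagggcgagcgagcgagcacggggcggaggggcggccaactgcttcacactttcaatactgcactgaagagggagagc
The Ciart promoter held 3 copies of CACGTG, whose first bases lay 116, 58 and 44 bases before the start, and the Bhlhe41 promoter held 1, at 153 bases before it. CACGTG reads the same on both strands. It was present in 7.15% of 32851 mouse promoters of this length, and 3 or more copies were present in 29 of them (0.0883%). Searched on both strands, neither promoter held CACGTT, the variant E-box (4.68% of all promoters), TTATGTAA, the D-box (0.938%), AGGTCA, the monomer of the ROR and REV-ERB element (16.3%), or TGACGTCA, the cAMP element (1.79%). ACGTG, a form of the core of the hypoxia element, was found only inside the E-boxes, with which it shares its letters. Other forms of this core were not searched. Of the E-box-driven clock genes listed further below, 9 had a promoter here, and 3 of them held CACGTG in this window. Dbp, Nr1d1 and Nr1d2 were among those without it. These matches are letters in a window and were not tested for binding.

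The 18 libraries held 4850221 to 40827442 UMIs (unique molecular identifiers, each standing for 1 captured transcript), and 16877 of 23990 barcodes were kept as cells. Of these, 36 barcodes occurred in more than 1 library, at most 2 in any pair of libraries. The library ZT18 replicate 1 was the shallowest. Cells were clustered and named from marker genes. They comprised 12602 fibroblasts (110 to 1567 per library), 1736 macrophages (20 to 249), 1546 other immune cells (10 to 300) and 737 skeletal muscle cells (1 to 102). A library was used for a cell type when it held at least 20 of its cells, which gave 18 libraries for fibroblasts and for macrophages, 17 for other immune cells (all but ZT18 replicate 1) and 12 for muscle. Levels are UMIs of a gene per 10000 UMIs of all genes, summed over the cells of 1 type in 1 library. Such a sum cannot tell fewer transcribing cells from less RNA per cell. The labels were given from these same markers, so their sums describe how far the groups were separated and do not check the labels. The 6 fibroblast markers, collagens among them, summed to 634 to 1114 per 10000 in fibroblasts and to 3.05 to 9.74 in macrophages. The 9 macrophage markers, among them the complement genes C1qa, C1qb and C1qc, summed to 194 to 252 in macrophages and to 0.0851 to 0.287 in fibroblasts. The separation was weaker within the immune cells, since the 9 macrophage markers summed to 5.17 to 53.8 in other immune cells. The 6 muscle markers summed to 1897 to 2362 in muscle and to at most 5.41 in the other 3 groups, whereas fibroblast markers reached 98.1 in 1 muscle library.

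In fibroblasts, Ciart, the repressor that binds BMAL1, was nearly absent from ZT18 to ZT2 and rose to a peak at ZT10. At ZT2 its level was 0.00179, 0 and 0.000891 per 10000 in the 3 mice, and at ZT6 it was 0.0145, 0.0168 and 0.0474. At ZT10 it was 0.0793, 0.0916 and 0.0856, and at ZT14 it was 0.0256, 0.0378 and 0.0162. It was 0, 0.00576 and 0.00366 at ZT18 and 0.00263, 0.00369 and 0.00587 at ZT22. Every ZT10 library lay above every library of the other times. The mean was 0.0855 ± 0.00616 (SD, n = 3) at ZT10 and 0.000895 ± 0.000897 (SD, n = 3) at ZT2, a ratio of 95.5 that rests on 368 UMIs against 5. Because low counts stand behind the lowest times, their order is not informative: 3 of the 5 pairs of neighbouring times, ranked by level, overlapped between libraries. As background, the libraries of the highest and the lowest time did not overlap for 61.8% of the 12797 genes tested in fibroblasts. No share over all genes was counted for 1 time above all others or for pairs of neighbouring times, here and below. A 24 h cosine fitted to the 18 levels had a mean of 0.0244, an amplitude (the rise of the cosine above that mean) of 0.0353 ± 0.00763 (jackknife SE over libraries) and a peak at ZT 10.1 ± 0.587 h. The amplitude was 145% of the mean, above it because the levels formed a short peak on a floor near 0. A second gene, C920021L13Rik, spans Ciart on the opposite strand, and the 3′ libraries keep strand. It had 35 UMIs at ZT10 and 42 at ZT2 in fibroblasts.

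In macrophages, Ciart was higher than in fibroblasts, and no peak as large relative to the mean was seen. Its level was 0.122, 0.288 and 0.478 per 10000 at ZT2 and 0.477, 0.184 and 0.409 at ZT6. It was 0.567, 0.331 and 0.453 at ZT10 and 0.306, 0.461 and 0.305 at ZT14. At ZT18 the 3 mice had 0.0740, 0.252 and 0.520, and at ZT22 they had 0.589, 0.669 and 0.168. High and low libraries occurred at nearly every time, and at 5 of the 6 times the 3 mice were spread more widely than the means of the 6 times. The fitted amplitude was 0.0149 ± 0.0548 around a mean of 0.370, which is 4.03% of the mean and smaller than its SE, and no peak time is given. This SE was larger than the whole fibroblast amplitude of 0.0353, so a rise of that absolute size could not be seen in macrophages. Macrophages lay above fibroblasts in 18 of 18 libraries, also at ZT10, and above other immune cells in 15 of 17. Fibroblast markers in the macrophage sums were in the range given above, and the Ciart level of fibroblasts was below that of macrophages in every library. The part of RNA from other cells in the macrophage level was not tested.

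Other immune cells lay between fibroblasts and macrophages for Ciart, at 0 to 0.329 per 10000 with a median of 0.113, and they were above the fibroblasts of the same library in 15 of 17 libraries. Their fitted amplitude, 0.0285 ± 0.0371, was again smaller than its SE. Muscle cells had 5 Ciart UMIs in all, with 9 of 12 libraries at 0 and the 3 others at 0.0484 (ZT6), 0.0183 (ZT10) and 0.0194 (ZT14). At this depth no time course of Ciart can be read in muscle.

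**Figure D1:**
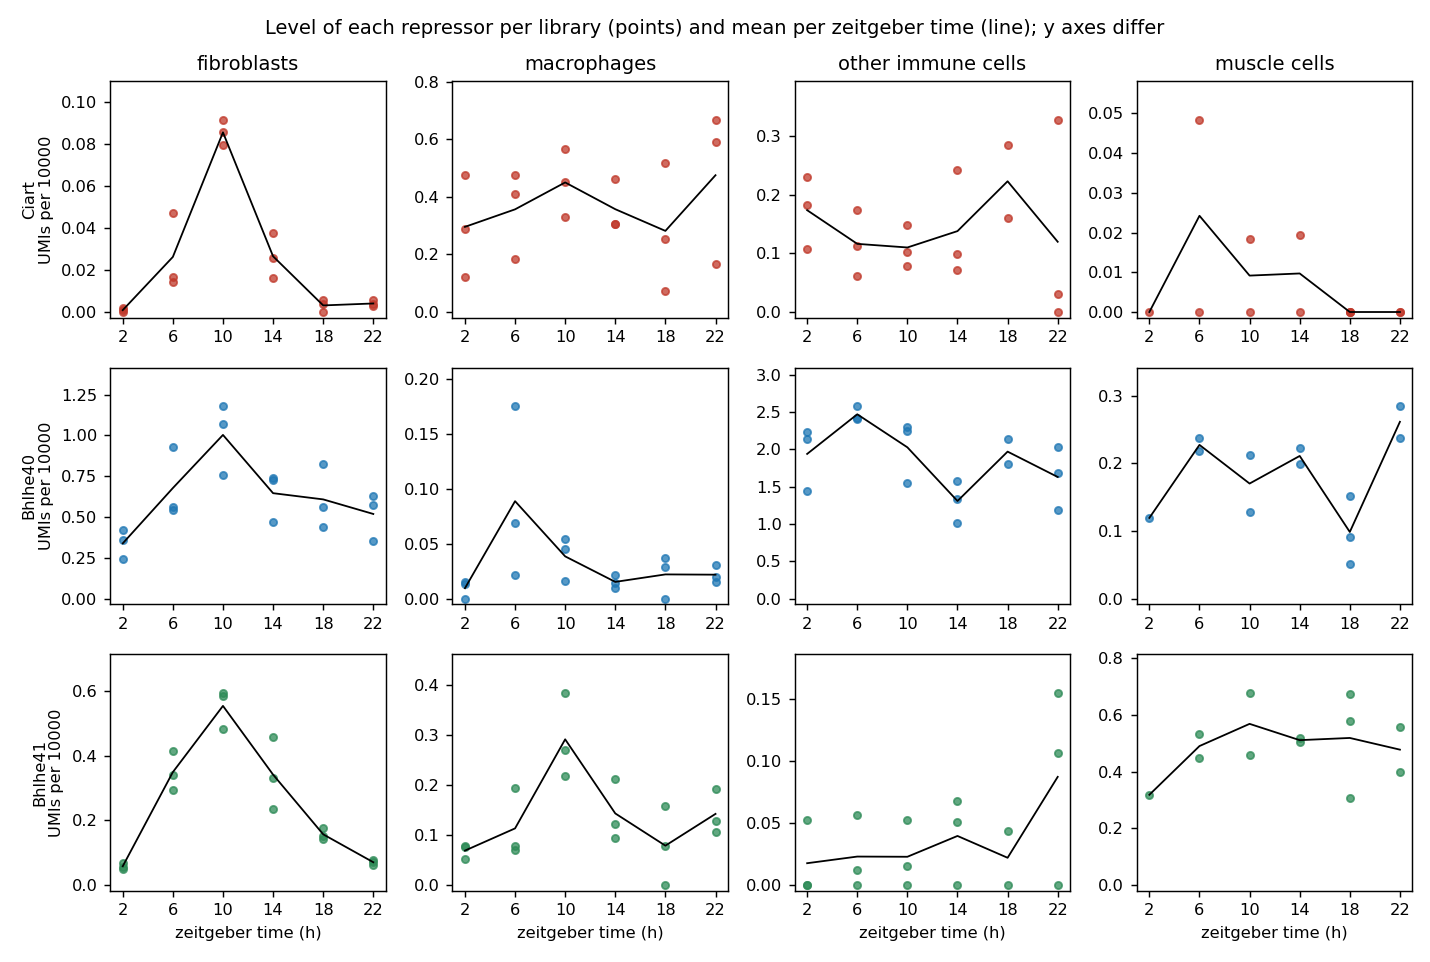
Level of each gene (UMIs per 10000, with its own axis in each panel) against zeitgeber time (h) in the 4 cell types, with 1 point per library and a line through the mean of each time. Ciart and Bhlhe41 in fibroblasts rise to a single peak at ZT10, where Ciart is at 0.0793 to 0.0916. Ciart in macrophages is spread between 0.0740 and 0.669, and no peak stands clear of that spread.

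Bhlhe40, the repressor that also answers to cell activation, had a higher floor in fibroblasts and a shallower rise. Its level was 0.417, 0.240 and 0.356 per 10000 at ZT2 and 0.559, 0.928 and 0.544 at ZT6. It was 1.07, 1.18 and 0.758 at ZT10 and 0.737, 0.729 and 0.470 at ZT14. At ZT18 it was 0.824, 0.562 and 0.437, and at ZT22 it was 0.626, 0.574 and 0.355. The ZT10 libraries were above all ZT2 libraries, beside the background of 61.8% of genes in fibroblasts without such an overlap. Yet the lowest ZT10 library lay below a ZT6 and a ZT18 library, and all 5 pairs of neighbouring times overlapped. The mean was 1.00 ± 0.219 at ZT10 and 0.338 ± 0.0899 at ZT2 (SD, n = 3 each), a ratio of 2.97. The cosine had an amplitude of 0.235 ± 0.0741, which is 37.2% of its mean of 0.632, and peaked at ZT 11.1 ± 1.09 h.

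Other immune cells had the most Bhlhe40, with their highest mean at ZT6 and not at ZT10. Their level was 2.14, 2.24 and 1.43 per 10000 at ZT2, 2.42, 2.41 and 2.58 at ZT6, and 1.54, 2.29 and 2.24 at ZT10. It was 1.34, 1.01 and 1.57 at ZT14, 1.80 and 2.13 in the 2 libraries used at ZT18, and 1.18, 2.03 and 1.68 at ZT22. The highest mean was 2.47 ± 0.0958 at ZT6 and the lowest 1.31 ± 0.281 at ZT14 (SD, n = 3 each), a ratio of 1.89 with no overlap between these 2 times. As background, the highest and lowest times did not overlap for 50.5% of the 8512 genes tested in these cells. The amplitude was 0.399 ± 0.163, or 21.5% of the mean of 1.86, and the fitted peak at ZT 5.35 ± 1.40 h was earlier than that of fibroblasts, a difference that was not tested. Bhlhe40 was higher in other immune cells than in fibroblasts in 17 of 17 libraries.

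Cells named as macrophages, by contrast, had almost no Bhlhe40. The 18 libraries held 70 UMIs of it, with levels of 0 to 0.175 per 10000 and a median of 0.0204, and fibroblasts were above macrophages in 18 of 18 libraries, by a ratio of means of 19.4. The highest library was ZT6 replicate 1, and the other 2 mice of ZT6 were at 0.0692 and 0.0215. Muscle cells had 0.0517 to 0.285 per 10000 (median 0.206) from 107 UMIs, with an amplitude of 0.0322 ± 0.0339, smaller than its SE. The pattern of Bhlhe40 across cell types was thus not that of Ciart, since the macrophages that were highest for Ciart were lowest for Bhlhe40.

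Bhlhe41, the closest relative of Bhlhe40, followed a narrow daily course in fibroblasts. It was at 0.0565, 0.0679 and 0.0496 per 10000 at ZT2 and at 0.292, 0.341 and 0.414 at ZT6. It reached 0.481, 0.585 and 0.595 at ZT10, and 0.235, 0.458 and 0.332 remained at ZT14. It was 0.177, 0.152 and 0.141 at ZT18 and 0.0609, 0.0716 and 0.0787 at ZT22. The 3 mice of a time differed by less than the change over the day, and most at ZT14, where they ran from 0.235 to 0.458. The ZT10 libraries were above those of all other times. The background of 61.8% in fibroblasts is for the highest against the lowest time only. The mean was 0.554 ± 0.0633 at ZT10 and 0.0580 ± 0.00924 at ZT2 (SD, n = 3 each), a ratio of 9.55. Of the 5 pairs of neighbouring times, 2 overlapped, and no share over all genes was counted for such pairs. The cosine peaked at ZT 10.4 ± 0.377 h with an amplitude of 0.242 ± 0.0274, which is 94.9% of the mean of 0.255.

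Macrophages also had their highest Bhlhe41 at ZT10, at a lower level and with fewer counts (318 UMIs). Its level was 0.0763, 0.0516 and 0.0787 per 10000 at ZT2, 0.0771, 0.0692 and 0.194 at ZT6, and 0.385, 0.271 and 0.219 at ZT10. It was 0.0947, 0.122 and 0.213 at ZT14, 0, 0.0776 and 0.159 at ZT18, and 0.128, 0.192 and 0.107 at ZT22. The ZT10 libraries lay above all libraries of the other times, though the lowest of them, at 0.219, was close to the highest of ZT14, at 0.213. No background share was counted for 1 time above all others. The mean of 0.292 ± 0.0852 at ZT10 was 4.24 times the 0.0689 ± 0.0150 at ZT2 (SD, n = 3 each), beside a background of 49.1% of 9093 genes whose highest and lowest times did not overlap. The cosine peaked at ZT 10.6 ± 1.44 h with an amplitude of 0.0689 ± 0.0327, or 49.3% of the mean.

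Muscle cells had more Bhlhe41 than fibroblasts and a flatter course. The level was 0.318 in the 1 library used at ZT2, 0.533 and 0.448 at ZT6, 0.679 and 0.458 at ZT10, and 0.518 and 0.504 at ZT14. It was 0.578, 0.672 and 0.305 at ZT18 and 0.556 and 0.399 at ZT22. The 3 libraries of ZT18 alone spanned most of this range. The amplitude was 0.0696 ± 0.0506, or 14.2% of the mean of 0.490, and the peak time had an SE of 3.01 h. As background, the highest and lowest times did not overlap for 79.5% of the 4398 genes tested in muscle, where a time had 1 to 3 libraries. Muscle was above the fibroblasts of the same library in 11 of 12 libraries. Other immune cells had 72 Bhlhe41 UMIs, 0 to 0.155 per 10000, with 7 of 17 libraries at 0.

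The group of other immune cells is a mixture, and the 3 genes were unevenly spread within it. Summed over all libraries, Bhlhe40 was 3.16 per 10000 in T cells (95% Poisson interval 2.86 to 3.47, for counting error only), 2.84 in natural killer or innate lymphoid cells, 2.34 in dendritic cells, 2.27 in neutrophils and 1.46 in mast cells. It was 0.524 in monocytes and 0.151 in the 33 B cells, from 3 UMIs. Lymphoid and myeloid classes therefore both held it. Cells named as macrophages, at 0.0315, were below each of these classes, although the interval of the B cells (0.0312 to 0.442) reached that value. Bhlhe41 was the reverse of this in the lymphocytes. B cells had 1.01 per 10000 (20 UMIs, interval 0.616 to 1.56), the highest of any class, whereas T cells, natural killer or innate lymphoid cells, dendritic cells, neutrophils and mast cells had no UMI of it, with an upper limit of 0.0104 in dendritic cells. The B cells came from 14 libraries, at most 6 from any of them. Ciart was 0.411 in macrophages, 0.183 in monocytes, 0.0814 in dendritic cells and 0.0519 in T cells. No UMI of it was found in B cells or neutrophils, with upper limits of 0.186 and 0.0565. The group also held 350 unnamed immune cells, with Ciart at 0.262 (156 UMIs), Bhlhe40 at 2.03 (1211 UMIs) and Bhlhe41 at 0.0252. Of these, 135 cells led by Ear2, Lyz1 and Fn1 had 6 of the 9 macrophage markers detected. The 215 cells led by Lyz1, Lpl and Dcstamp had 4. In the 135 cells the mean marker level, relative to the sub-cluster highest for each marker, was 0.162. This was below the cutoff for the macrophage name. The near absence of Bhlhe40 therefore covers only cells that took the macrophage name. The library ZT14 replicate 1 gave 92 of the 147 neutrophils and ZT2 replicate 3 gave 174 of the 419 monocytes, so the make-up of other immune cells changed between mice. Weighting the classes alike in every library gave a Bhlhe40 amplitude of 0.395, against 0.399.

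**Figure D2:**
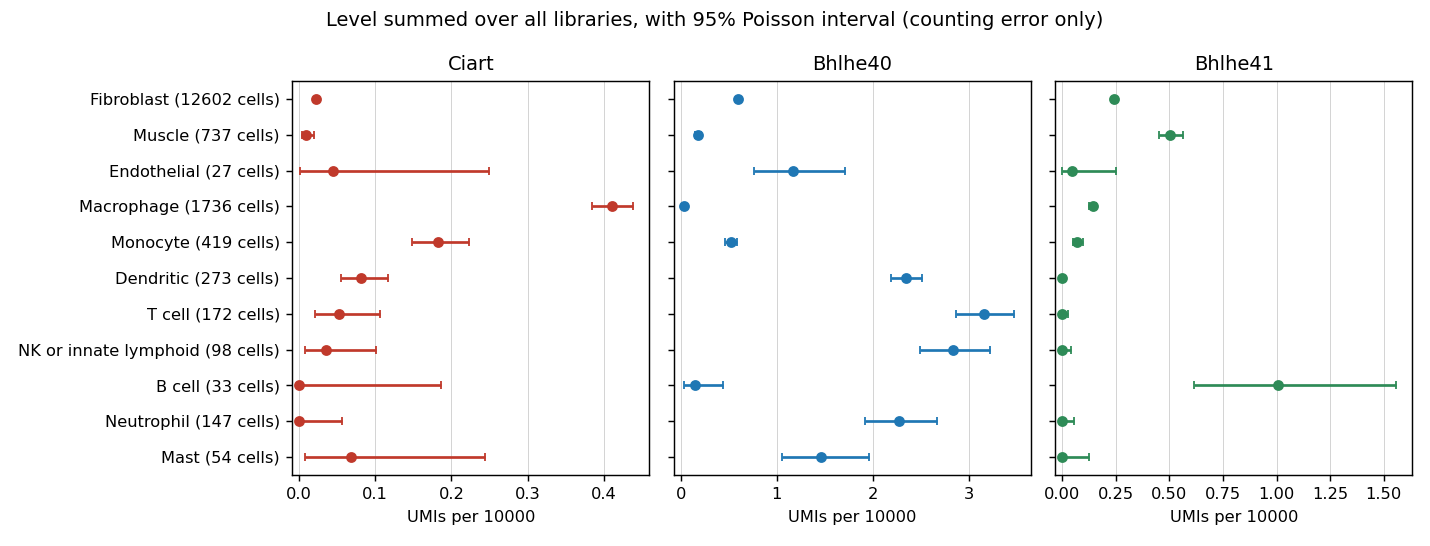
Summed level of each gene (UMIs per 10000) in the named cell classes (points), with bars for 95% Poisson intervals that cover counting error only. Bhlhe40 is highest in T cells at 3.16 and lowest in macrophages at 0.0315, Ciart is highest in macrophages at 0.411, and Bhlhe41 in B cells at 1.01.

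Fibroblasts fell into 9 clusters, and Bhlhe40 differed between them by far more than Ciart or Bhlhe41. Its summed level was lowest, at 0.136 per 10000, in the cluster led by AY036118, Gm42418 and Pla1a. The first 2 of these are transcripts that overlap ribosomal RNA sequence, a sign of RNA quality. Summed with Lars2, another of its 10 leading genes, they made up 423 per 10000 in this cluster against 208 to 285 in the other 8, and its cells had the lowest median depth, 18329 UMIs against 20377 to 25987. Their part in the Bhlhe40 level was not tested. Bhlhe40 was 0.144 to 0.214 in the clusters led by Sult1e1, Cxcl13 and Igfbp3, by the interferon genes Ifit1, Iigp1 and Isg15, by Cxcl10, Gm12840 and Ccn1, and by the keratinocyte-associated genes Krtdap, Dmkn and Sbsn. It was 1.02 in the cluster led by Cxcl1, Cxcl10 and Has1, the first 2 of them chemokines, and 1.26 in that led by Igfbp7, Cxcl14 and C4b. It reached 2.61 in the cluster led by Tnfaip6, Cthrc1 and Ctsk, in which the tendon gene Tnmd was also among the 10 leading genes, and 3.54 in that led by Cilp, Mgp and Mfap4, genes of the extracellular matrix. The last 4 clusters, grouped after their values were seen, held 20.3% of the fibroblasts and 77.7% of the Bhlhe40 UMIs (12683 of 16324). They held 27.5% of the Ciart UMIs and 22.7% of the Bhlhe41 UMIs, close to their 22.7% share of all fibroblast UMIs. Over the 9 clusters Ciart ran from 0.0144 to 0.0485 and Bhlhe41 from 0.163 to 0.496. The clusters were made from these same cells, so the differences are described and not tested.

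The immediate early genes, such as Fos, Jun and Egr1, rise within minutes of a stimulus, tissue digestion included. Their 13 listed genes summed to 216 to 311 per 10000 in the 4 clusters rich in Bhlhe40 and to 48.0 to 135 in the other 5. The part of digestion in the Bhlhe40 level was not tested.

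Relative to its mean, the daily course of Bhlhe40 was largest in the cluster with the lowest level. In the cluster led by AY036118, Gm42418 and Pla1a, Bhlhe40 was 0.0251 ± 0.00225 at ZT2 and 0.302 ± 0.00786 at ZT10 (SD, n = 3 each). The libraries ranged from 0.0226 to 0.0268 and from 0.296 to 0.311. The ZT2 levels rest on few UMIs, so their counting error is wider than this SD. No share of all genes without such an overlap was counted in this cluster. The amplitude of Bhlhe40 was 0.130 ± 0.0158 there, or 95.5% of the mean, with a peak at ZT 11.5 ± 0.627 h. AY036118, Gm42418 and Lars2 summed to 501 ± 266 per 10000 at ZT2 and 364 ± 40.3 at ZT10 in this cluster (SD, n = 3 each), and their part in this course was not tested. In the other 4 clusters of low level the amplitude was 59.3% to 73.6% of the mean. In the cluster led by Cilp, Mgp and Mfap4 it was 0.628 ± 0.526, or 17.5% of the mean, and the level was 3.74 in the 1 library used at ZT2 and 3.99 ± 1.46 at ZT10 (SD, n = 3). In the clusters led by Tnfaip6 and by Cxcl1 it was 27.8% and 25.2%, and in that led by Igfbp7 it was 49.5%, each from 10 to 13 libraries. For Bhlhe41 the amplitude was also lower in these 4 clusters, though by less, at 71.2% to 93.3% of the mean against 95.4% to 101% in the other 5. For Ciart the ranges overlapped, at 102% to 143% against 135% to 159%. The peaks of both lay between ZT 8.58 and ZT 11.1 in all 9 clusters, and none of these differences was tested. When the 9 clusters were weighted alike in every library, the amplitude in all fibroblasts was 0.0361 for Ciart, 0.208 for Bhlhe40 and 0.244 for Bhlhe41. Unweighted, these were 0.0353, 0.235 and 0.242. The weighted peaks were at ZT 10.0, ZT 12.2 and ZT 10.1, against ZT 10.1, ZT 11.1 and ZT 10.4 unweighted. The part of the cell make-up was not tested.

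**Figure D3:**
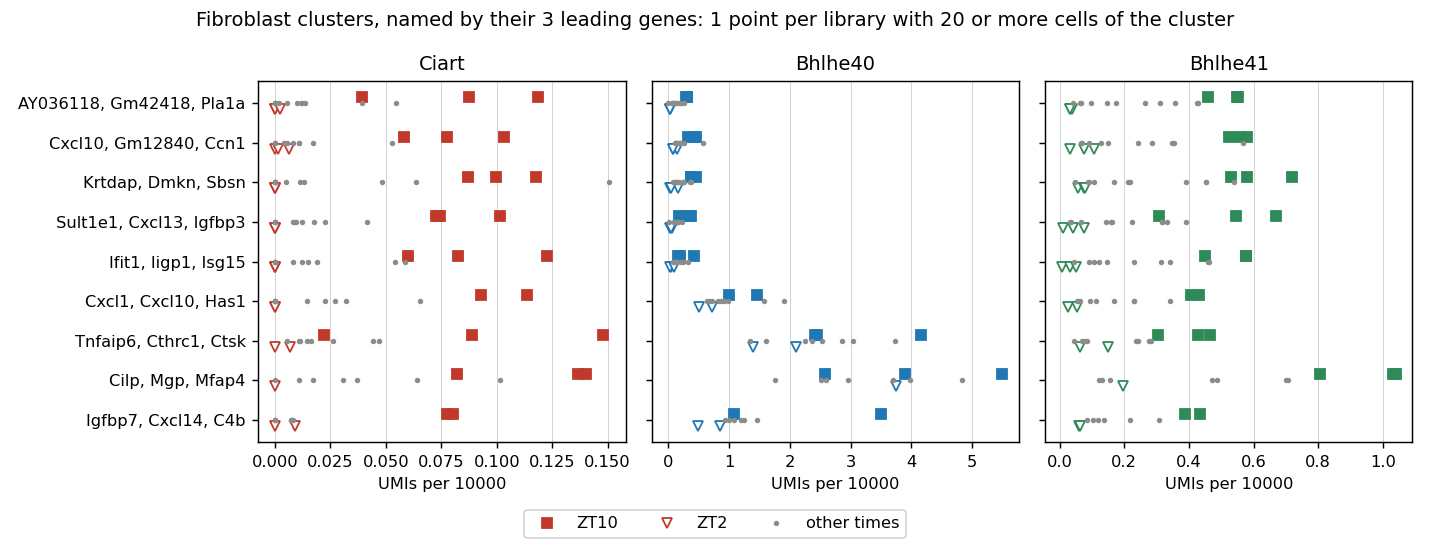
Level of each gene (UMIs per 10000) in the 9 fibroblast clusters, each named by its 3 leading genes, with 1 point per library that held at least 20 cells of the cluster, filled squares for ZT10, open triangles for ZT2 and grey points for the other times. Bhlhe40 at ZT10 (0.296 to 0.311) lies clear of ZT2 (0.0226 to 0.0268) in the cluster led by AY036118, while in that led by Cilp the ZT2 library at 3.74 lies within the ZT10 range of 2.58 to 5.50.

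Macrophages fell into 5 sub-clusters, and most Ciart was in 1 of them. The sub-cluster led by the immediate early genes Egr1, Jun and Fos held 20.3% of the macrophages and 61.1% of their Ciart UMIs (558 of 913), a level of 1.29 per 10000 against 0.169 to 0.247 in the other 4. In each of the 7 libraries with at least 20 cells of this sub-cluster, Ciart was higher inside it (0.868 to 1.87) than in the remaining macrophages (0.0879 to 0.498). Its share of the macrophages was 0 to 32.7% between libraries. Macrophages outside it still had 0.0602 to 0.498 per 10000 over the 18 libraries, with a median of 0.200, above the fibroblast median of 0.0102. The summed immediate early genes were 451 per 10000 in this sub-cluster, 218 in that led by Ccl7, Ccl2 and Mt2, and 27.6 to 122 in the others. That led by Ccl7, second for the immediate early genes, had a summed Ciart level of 0.169 (95% Poisson interval 0.118 to 0.234), and this interval overlapped those of the other 3 sub-clusters of low Ciart. Whether the digestion raised either was not tested. With each sub-cluster weighted alike in every library, the Ciart amplitude in macrophages was 0.0144. Within the largest sub-cluster, led by Fcna, Cd209f and Lyve1, it was 3.47% of the mean over 12 libraries. In the second largest, led by Ighm, Acta1 and Hpgd, of which Ighm encodes immunoglobulin and Acta1 muscle actin, it was 0.132 ± 0.134 over 11 libraries, again no larger than its SE. Ighm was at 35.0 per 10000 there and at 1.96 to 5.16 in the other 4, and the part of RNA from other cells was not tested.

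The sub-cluster led by the chemokines Ccl7 and Ccl2 and by Mt2 was the one rich in the other 2 repressors. It held 11.3% of the macrophages, 38.1% of their Bhlhe41 UMIs (121 of 318) and 64.3% of their Bhlhe40 UMIs (45 of 70). It had 30, 33 and 9 cells in the 3 libraries of ZT10, the time at which macrophage Bhlhe41 was highest. Without this sub-cluster Bhlhe41 was 0.0438 ± 0.00947 at ZT2 and 0.199 ± 0.0301 at ZT10 (SD, n = 3 each), and its amplitude was 0.0617 ± 0.0151 with a peak at ZT 10.9 ± 1.12 h. With each sub-cluster weighted alike in every library, the amplitude of Bhlhe41 fell to 0.0411 from 0.0689. The sub-cluster led by Ccl7 held 0 to 33 cells per library, so its part in this value rests on few cells. Within the sub-cluster led by Fcna, Cd209f and Lyve1 it was 0.0675 ± 0.0499 over 12 libraries, with a peak at ZT 8.04 ± 2.97 h. Within that led by Ighm, Acta1 and Hpgd it was 0.0493 ± 0.0172 over 11 libraries, with a peak at ZT 14.5 ± 1.34 h. The difference between these peaks was not tested.

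**Figure D4:**
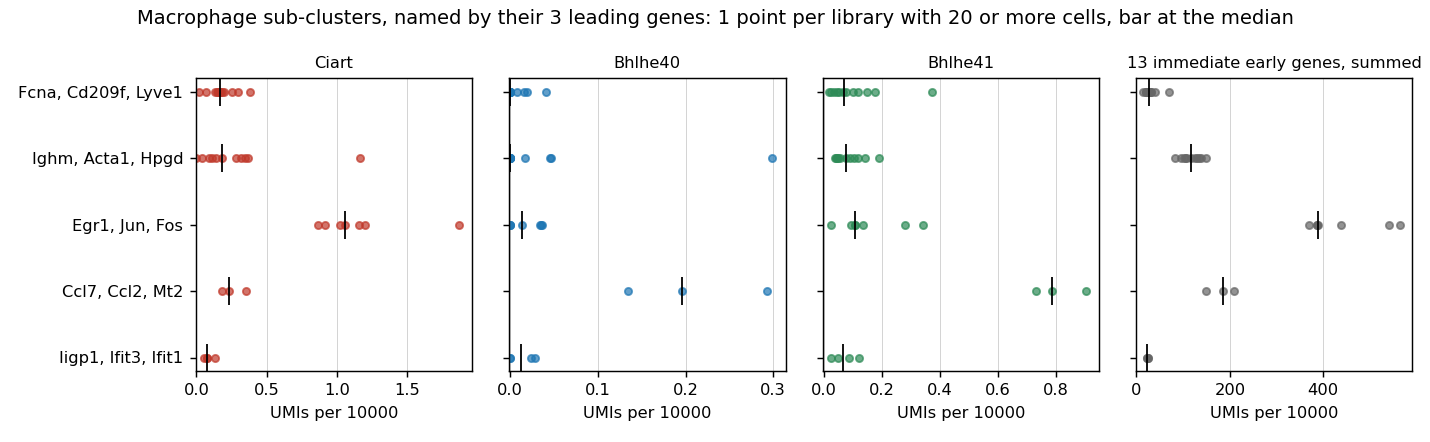
Level of each gene and of the 13 immediate early genes summed (UMIs per 10000) in the 5 macrophage sub-clusters, each named by its 3 leading genes, with 1 point per library that held at least 20 cells and a bar at their median. Ciart lies at 0.868 to 1.87 in the 7 libraries of the sub-cluster led by Egr1, Jun and Fos. Bhlhe41 is highest in the 3 libraries of that led by Ccl7, Ccl2 and Mt2, which are ZT10 replicates 1 and 2 and ZT22 replicate 1. The sub-clusters are therefore not compared at the same times.

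The other clock genes give the setting for these courses. Summed UMIs were tested for a 24 h cosine by the quasi-likelihood test of edgeR, and p-values were adjusted by Benjamini-Hochberg within each cell type, over every gene that passed the filter on low counts. In fibroblasts 13.6% of 12797 genes passed, and all 10 measured genes of an 11-gene list of targets that BMAL1 and CLOCK drive through E-boxes were among them, with a median log2 amplitude of 1.61 against 0.13 over all genes. Dbp, a transcription factor of clock output, had a log2 amplitude of 2.89 (adjusted p = 4.83e-08) and a peak at ZT 9.88, and Nr1d1 and Nr1d2, which encode the REV-ERB repressors, had 3.03 (adjusted p = 4.05e-07) and 1.74 (adjusted p = 8.97e-08) with peaks at ZT 8.11 and ZT 9.44. Per3 peaked at ZT 11.1 (log2 amplitude 1.43, adjusted p = 5.18e-07) and Per2 at ZT 14.4 (1.57, adjusted p = 0.000159). These are fits of log2 counts. Fitted to levels, as for the repressors, Nr1d1 peaked at ZT 8.04, Dbp at ZT 9.63, Hlf at ZT 10.7, Tef at ZT 10.9, Per2 at ZT 14.3 and Cry1 at ZT 19.4. The repressors, at ZT 10.1 to ZT 11.1, lay after Nr1d1 and before Per2 and Cry1. The peak of Ciart was within its SE of that of Dbp, so the order of these 2 is not resolved. Cry2 was the weakest of the list (adjusted p = 0.0281) and did not pass without any 1 of the 3 ZT10 libraries.

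Of the 7 listed activators and genes under ROR and REV-ERB control, 4 passed in fibroblasts, and all 4 peaked late in the night, opposite to the repressors. Arntl, which encodes BMAL1, had a log2 amplitude of 2.28 (adjusted p = 3.66e-08) with a peak at ZT 22.6, Nfil3 had 1.78 (adjusted p = 4.20e-08), Npas2 had 1.99 (adjusted p = 4.05e-07) and Clock had 0.49 (adjusted p = 9.76e-07). Over the 18 fibroblast libraries, Pearson's r of the log2 level with Arntl was -0.92 for Ciart, -0.67 for Bhlhe40 and -0.97 for Bhlhe41. These points share libraries and depth, and the values are a description.

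In macrophages 0.825% of 9093 genes passed, and 7 of the 9 measured E-box-driven genes were among them, with a median log2 amplitude of 1.24 against 0.17 over all genes. Nr1d2 (adjusted p = 3.53e-09), Dbp (2.22e-08), Nr1d1 (4.11e-05), Per3 (4.40e-05), Tef (0.000117) and Per2 (0.000480) passed with log2 amplitudes of 1.10 to 2.19, and Arntl passed with 1.55 (adjusted p = 1.29e-05), while Clock did not (adjusted p = 0.215). Cry2 passed at adjusted p = 0.0404 and missed the threshold with the replicate number as a block (adjusted p = 0.0527), and it passed in 15 of 25 alternative settings. Ciart had more UMIs in macrophages than in fibroblasts (913 against 625), but 558 of the 913 came from 1 sub-cluster. The share of that sub-cluster among macrophages was 0 to 32.7% between libraries. The amplitude of Ciart was within its SE in cells in which other E-box-driven genes passed the test. The course of Ciart itself was not tested. The count of genes that passed in macrophages was 49 without ZT10 replicate 2 and 163 without ZT14 replicate 1, against 75.

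In other immune cells 0% of 8512 genes passed edgeR's test. There were 411 genes with an unadjusted p below 0.05, and DESeq2 called 5 (Fbxo5, Hist1h2ae, Hist1h2bm, Hmgn2 and Zmynd15, named after their values were seen). Of the 7 measured E-box-driven genes, 5 had an unadjusted p below 0.05 and their median log2 amplitude was 0.82 against 0.19 over all genes. In muscle 0.0682% of 4398 genes passed, which were Dbp (adjusted p = 6.73e-05), Glul and Mid1ip1, so that 1 of 5 measured E-box-driven genes was called there.

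**Figure D5:**
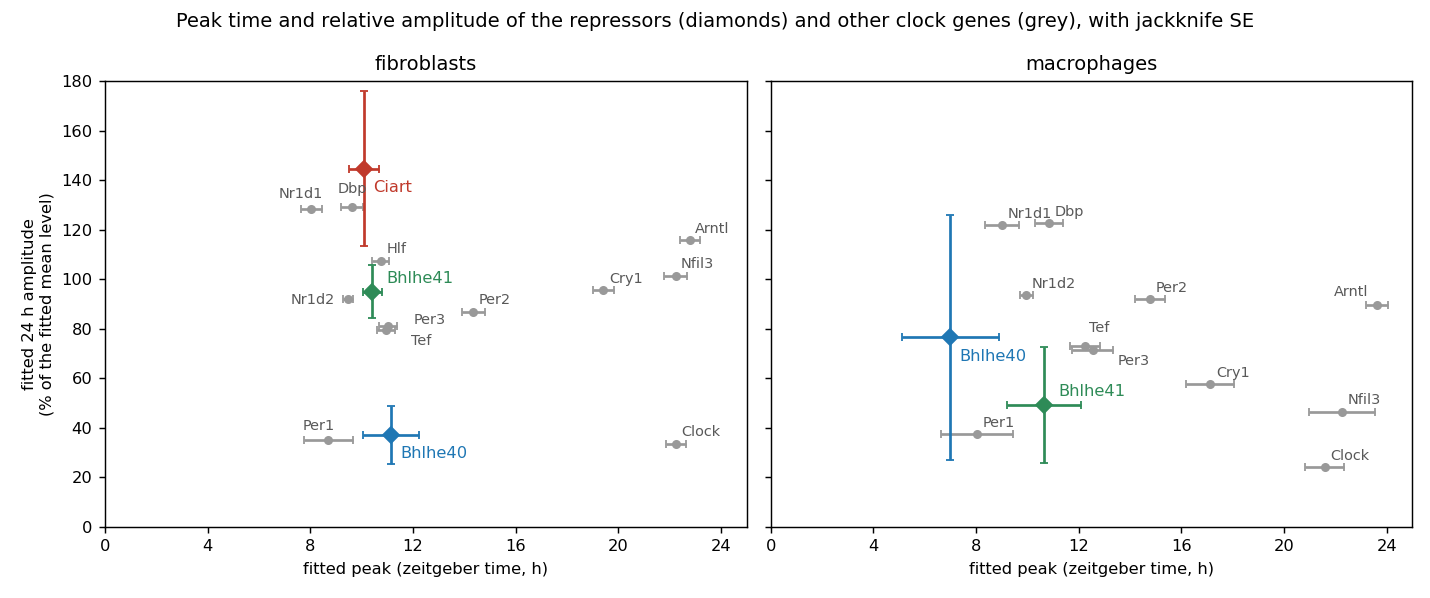
Fitted peak time (zeitgeber time, h) against relative 24 h amplitude (percent of the mean level) of the repressors (diamonds) and of listed clock genes (grey) in fibroblasts and macrophages, with bars for the jackknife SE and without Ciart in macrophages, whose amplitude was smaller than its SE. In fibroblasts the repressors lie between ZT 10.1 and ZT 11.1, at 145% for Ciart, 94.9% for Bhlhe41 and 37.2% for Bhlhe40, and Arntl, fitted to levels, lies at ZT 22.8.

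Lists of immediate early and hypoxia-response genes stand here for other known inducers of Bhlhe40. None of the 13 immediate early genes passed in fibroblasts by edgeR or DESeq2, with 6 at an unadjusted p below 0.05. Over all genes tested by edgeR, 3808 of 12797 had an unadjusted p below 0.05 in fibroblasts and 1215 of 9093 in macrophages. The counts were 411 of 8512 in other immune cells and 226 of 4398 in muscle. Of the 13 genes in fibroblasts, the smallest adjusted p-values were those of Ier2 (0.107), Fosb (0.125), Jund (0.141) and Jun (0.151). Their median log2 amplitude was 0.27, where all genes had 0.13. Ier2 alone passed when ZT2 replicate 1 was left out. Their summed level in fibroblasts was highest at ZT10 (143 ± 11.7, SD, n = 3), the time of the repressors' peak, and lowest at ZT14 (92.6 ± 7.67). It was 126 ± 16.0 at ZT2, where the repressors were lowest, 134 ± 29.2 at ZT6, 113 ± 16.9 at ZT18 and 134 ± 15.4 at ZT22. The ZT10 libraries (132 to 155) overlapped those of ZT2 (113 to 144). In macrophages the summed level was 215 ± 82.7 at ZT10 and 111 ± 16.0 at ZT2. Its part in the ZT10 levels was not tested beyond the comparison of mice within a time given next. In macrophages none of the 13 passed by either tool, with 3 at an unadjusted p below 0.05 and a median log2 amplitude of 0.35, although 12 passed when genes of low count were kept in the fit, and Egr2 passed without ZT22 replicate 3. Of 10 measured genes of the hypoxia list, 5 passed in fibroblasts: Ldha (adjusted p = 0.00254), Vegfa (0.00963), Slc2a1 (0.0111), Pgk1 (0.0300) and Bnip3 (0.0408). The first 4 peaked between ZT 15.6 and ZT 21.2, later than the fitted level of Bhlhe40, and Bnip3 at ZT 5.72. The count was 3 without ZT6 replicate 1, ZT6 replicate 2 or ZT14 replicate 3, each of which removed Pgk1 and Bnip3, and Bnip3 did not pass without any 1 of 12 of the 18 libraries. Their median log2 amplitude in fibroblasts was 0.30. In macrophages none of 6 passed by edgeR, 2 had an unadjusted p below 0.05 and DESeq2 called P4ha1. In other immune cells and in muscle no gene of these lists or of the activators passed by either tool, with 2 of 8 and 1 of 6 hypoxia genes, 0 of 13 and 3 of 12 immediate early genes and 0 of 4 and 1 of 2 activators at an unadjusted p below 0.05.

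Differences between mice of the same time were used to ask whether the repressors moved with the immediate early genes or together across cell types. The 9 relations were correlations, over 18 libraries, of deviations from the mean of each time on the log2(CPM + 1) scale, with two-sided permutation tests (100000 draws within times). None passed after adjustment. The largest was that of Bhlhe41 with the immediate early genes in macrophages, with r = 0.63 (permutation p = 0.0559, adjusted p = 0.503) and Spearman's rho = 0.55 (permutation p = 0.0829, adjusted p = 0.715), the same sign in 13 of 18 libraries, and r = 0.38 without the 2 farthest libraries, a value over 15 libraries because a time left with 1 library dropped out too. With CPM not put on a log scale it had r = 0.23 and rho = 0.25, so the size of this relation rests on the scale and on those libraries. The others had r between -0.42 and 0.40 (adjusted p of 0.581 to 0.768). Ciart in macrophages had r = 0.32 with the immediate early genes (adjusted p = 0.683). The 3 genes' levels in macrophages against their own levels in fibroblasts had r of 0.17 (Ciart), 0.16 (Bhlhe40) and -0.14 (Bhlhe41). Several of these uncalled values changed sign between settings.

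The genes most like each repressor over the 18 fibroblast libraries were found by Pearson's r of log2(CPM + 1). They were taken from 12779 genes that passed the filter on low counts in fibroblasts. For Bhlhe41 they were clock genes, Hlf (0.986), Tef (0.983) and Per3 (0.972), then Por (0.949), the electron donor of cytochrome P450 enzymes, and Dbp (0.947). For Ciart they were Dgat2 (0.949), an enzyme of triglyceride synthesis, Scp2 (0.929), a sterol carrier, Por (0.901), Cpeb1 (0.892) and Lrrn4cl (0.892). For Bhlhe40 the values were lower, with the arginine transporter Slc7a2 (0.861), Mcl1 (0.843), a survival factor, Adgrl2 (0.840) and the immediate early gene Ier3 (0.827), none of them a gene of the clock lists. Among themselves, Ciart and Bhlhe41 had r = 0.89, Bhlhe40 and Bhlhe41 r = 0.71, and Ciart and Bhlhe40 r = 0.67.

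Over the 24 means of 4 cell types at 6 times the order was another one, since there the cell types dominate. Only the same genes that passed the filter in fibroblasts were compared. Genes too low in fibroblasts were left out, whatever their level in the other cell types. Among those compared, the genes nearest to Ciart were Nrp2 (0.940), Serpinb8 (0.940), Foxred2 (0.937), Myo5a (0.937) and P2ry6 (0.935). Those nearest to Bhlhe40 were the ribosomal protein genes Rps7 (0.949), Rpl13 (0.944), Rps18 (0.937), Rpl12 (0.935) and Rps15a (0.934). For Bhlhe41 they were Tef (0.911), Serpinb6a (0.894), Gkap1 (0.878), Crnde (0.870) and Ddah1 (0.867), so that Tef was near it on both scales. The 3 repressors were not alike here, with r of -0.24 between Ciart and Bhlhe40, -0.48 between Ciart and Bhlhe41, and -0.37 between Bhlhe40 and Bhlhe41. These correlations share libraries and are given without a test.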

How the data were processed

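The deposited files hold raw UMI counts per gene and barcode for each of the 18 libraries, which the authors made with Cell Ranger 3.1.0 and the mm10 genome from 10x 3′ libraries, per the labels' processing notes and the study's methods. No normalization precedes them. The filter stated by the study was applied (850 to 7800 genes and under 13% mitochondrial UMIs per cell), followed by 2000 variable genes, 30 principal components, 15 neighbours and Leiden clustering at resolution 0.8 (scanpy 1.11.5, leidenalg 0.10.2). The members, the listed clock genes, the immediate early genes, and the haemoglobin and mitochondrial genes were kept out of the variable genes. A cluster took a class name when at least 3 of its markers were detected in 25% of its cells and reached 10% of the highest cluster's level, and no more markers of another class than of its own were among its 10 leading genes. It stayed unnamed when a second class came close, or when its cells were shallow for their library and no marker of its own led. An immune class also needed a mean marker level of at least 25%, each marker taken relative to the sub-cluster highest for it. After the clusters were seen, the leading genes of this rule were taken against cells of other classes. Of 3338 immune cells, 56 in sub-clusters that led with genes of another class were left out. A doublet caller marked 49 barcodes, too few to have worked, so no cell was removed in the results reported, and 217 cells with the highest scores were removed as an alternative.

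Counts were summed per library and cell type. The members were described by UMIs per 10000 and a 24 h cosine with jackknife SEs. Other genes were tested with edgeR 4.0.16 (TMM, filterByExpr, quasi-likelihood F test of the cosine terms, R 4.3.3) in place of the JTK_Cycle of the study, because the files hold counts, and DESeq2 1.42.0 was an alternative. Both scripts were tested on simulated data. The adjusted p threshold was 0.05. The members and the gene lists were chosen with earlier results of these data known. Named are the members, of each list the 4 genes with the smallest adjusted p in fibroblasts, Arntl, Clock, Nr1d1, Dbp and Per2 always, and the 5 genes most like each member, except for items that are not reported here. Any other gene was named after its values were seen. Each library is 1 mouse from its own collection, so p-values measure the spread between mice together with that between collections.

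Replicate numbers rise with the hour counts in the sample titles. These hours were read as days of collection, which the titles do not name, so same-numbered libraries were taken to share a day. Deviations of same-numbered libraries from their group means had a median correlation of 0.0361 in fibroblasts and 0.0217 in macrophages. Between libraries of different numbers the medians were -0.0390 and -0.0141. In all, 11 and 10 of 18 libraries were closest to their own number, and the share to be found without a shared day was not counted. The alternatives were DESeq2, RLE size factors, no filter on low counts, the replicate block, all libraries, clustering at resolution 2, doublets removed, each library left out, CPM without log, and, chosen after seeing the data, the same cell make-up in every library. For the last, each cluster was weighted by its share of the cell type's UMIs over all libraries. A cluster without cells in a library dropped out of the weights there. Promoter sequences are from RefSeq (GRCm38.p6), which gave 2 of the 3 members.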

Additional observations from a re-analysis of the deposited data

How the results depend on the processing

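Of 393 alternative values of the results that answer a comparison, 371 kept their call or stayed within the spread between replicates, 16 moved and 6 reversed. The reversed ones were correlations within times, none called in any setting. That of Ciart with the immediate early genes in macrophages was -0.074 (0.32 as reported) without the 2 farthest libraries, and that of Bhlhe40 with them was 0.021 (-0.42) with the replicate block. The correlation of macrophage with fibroblast levels was -0.053 (0.17) for Ciart, -0.048 (0.16) for Bhlhe40 and 0.22 (-0.14) for Bhlhe41 with clustering at resolution 2, and -0.23 for Bhlhe40 with the replicate block, and the cause was not tested. The 16 that moved were counts of rhythmic genes outside fibroblasts, where edgeR as reported gave 75 in macrophages, 0 in other immune cells and 3 in muscle, and the cause was not tested. DESeq2 called 195 genes in macrophages, 5 in other immune cells and 13 in muscle, and without the filter on low counts the counts were 663, 48 and 207. In muscle, all libraries gave 5, clustering at resolution 2 gave 13 and doublets removed gave 8. Leaving out 1 library gave 1297 to 1894 genes in fibroblasts (1744 with all), 49 to 163 in macrophages, 0 to 1 in other immune cells (Lrg1, without ZT14 replicate 3) and 1 to 5 in muscle (1 without ZT2 replicate 1, ZT6 replicate 3 or ZT14 replicate 2, and 5 without ZT18 replicate 1). With the replicate number as a block the counts were 1802 in fibroblasts, 84 in macrophages, 0 in other immune cells and 4 in muscle, and besides Cry2 in macrophages it changed no other call in the lists. Counting depth limits Ciart in muscle, Bhlhe40 in macrophages and Bhlhe41 in other immune cells, each with at most 72 UMIs in all.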
